A study of Mus musculus with 2 samples.

Results

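The 6 genes described here encode transcription factors of early surface ectoderm. They are the AP-2 genes *Tfap2a*, *Tfap2b* and *Tfap2c*, the p63 gene *Trp63*, and the grainyhead-like genes *Grhl2* and *Grhl3*. They were taken by name, and all 6 were found among the 27998 genes of both count matrices. Single cells from the ocular area of mouse embryos at the 26-somite stage (strain C57BL/6J) had been sequenced with 10x Chromium 3′ chemistry. One library came from a wild-type embryo (WT) and the other from a *Mab21l1*-null embryo (KO), a mouse that lacks a gene needed for growth of the lens placode. Each library held cells from both eye areas of 1 embryo, so genotype, embryo and library cannot be told apart, no test between genotypes was possible, and classes are described in each library without a test. Intervals below are exact 95% intervals that cover counting error only, not the variation between embryos. Those of levels and ratios, taken from summed UMIs, also leave out the spread between cells.

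AP-2 factors are DNA-binding proteins that pair with each other and act in both the surface ectoderm and the neural crest, where their loss disturbs the face, the eye and the lens. p63 sets up and maintains stratified epithelium, and 3′ counts do not separate its isoforms with and without the transactivation domain. Grainyhead-like factors drive epithelial junction genes and are needed to close the neural tube and the epidermis. At this stage the ectoderm over the eye is a single sheet in which the lens placode, marked by *Pax6*, thickens beside the surface ectoderm that will become cornea, conjunctiva and eyelid skin.

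After limits on detected genes and mitochondrial UMIs (unique molecular identifiers, each counting 1 captured RNA), 1680 WT and 2404 KO cells remained, with a median of 21037 and 18135 UMIs per cell. The targeted *Mab21l1* had 849 UMIs under the WT label and 1706 under the KO label, or 20.3 and 32.5 when each sum is scaled to 1000000 UMIs (CPM). In ectoderm it was lower in the library labelled KO, at 40.3 against 80.5 CPM. Where the disrupted part lies relative to the counted 3′ end was not analysed here, and each direction between genotypes below rests on the labels. 15 barcode sequences occurred in both libraries.

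Cell classes were set by how many markers of a fixed list a cell had, and none of the 6 genes was among the markers. Cells with at least 4 of 7 ectoderm markers (*Krt8*, *Krt18*, *Krt19*, *Dlx5*, *Dlx6*, *Epcam* and *Cdh1*) were ectoderm-like, 59 in WT and 44 in KO. Cells with at least 4 of 6 neural crest markers, among them *Sox10* and *Foxd3*, were neural crest-like, 36 and 39. Cells with at least 4 of 6 mesenchyme markers (*Col3a1*, *Prrx1*, *Prrx2*, *Twist1*, *Col1a2* and *Pdgfra*) were mesenchyme-like, 511 and 765. The other classes were optic vesicle (647 and 945 cells), neural ectoderm (89 and 106), endothelium (67 and 100) and erythrocytes (38 and 52), and 289 and 433 cells passed no gate. The ectoderm gate was met at its limit of 4 markers by 36 of the 59 WT cells and by 14 of the 44 KO cells. Some cells passed a second gate, 7 of the WT and 9 of the KO ectoderm cells, and 6 of the WT and 14 of the KO neural crest cells, mostly the optic vesicle gate. Among neural crest cells the summed optic vesicle markers stood at 224 CPM in WT and 343 CPM in KO, with 0 of 4 markers at 0. In ectoderm they stood at 147 and 268 CPM, with 0 of 4 at 0. The summed mesenchyme markers stood at 58.2 CPM in WT and 97.4 CPM in KO ectoderm, with 1 and 0 of 6 at 0, and at 126 and 168 CPM in neural crest, with 0 of 6 at 0. The part of these other RNAs in the results was not tested.

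In the GRCm38 annotation *Tfap2a* (ENSMUSG00000021359) lies on chr13:40715302-40738376 and *Grhl3* (ENSMUSG00000037188) on chr4:135541888-135573630, both on the minus strand. *Tfap2b* (ENSMUSG00000025927) lies on chr1:19208914-19238576, *Tfap2c* (ENSMUSG00000028640) on chr2:172549593-172558622, *Trp63* (ENSMUSG00000022510) on chr16:25683763-25892102 and *Grhl2* (ENSMUSG00000022286) on chr15:37233036-37363569, all on the plus strand. The exons of *Tfap2a* overlap those of 3 antisense genes by 73 to 380 bases, and the exons of *Grhl2* overlap 1 antisense gene by 169 bases. The other 4 genes share no exon base with another gene.

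The promoters below are those of *Tfap2a*, *Tfap2b* and *Grhl3*, the only members for which a promoter sequence was at hand. They are RefSeq sequences of GRCm38.p6, from 250 bases before to 50 bases after a start site, read 5′ to 3′ on the gene's strand, and 3 of the 6 genes were in the table. Capitals mark matches to 4 motifs searched on both strands: the AP-2 motif as GCCNNNGGC, which 16.6% of all 32851 promoters of this length held, the AP-2 motif with a spacer of 4 bases, GCCNNNNGGC (14.8%), the grainyhead motif AACCGGTT (0.146%) and the E-box CACCTG (20.2%). *Tfap2a* lies at chr13:40734871-40735170, minus strand, the first of 2 starts in the table, *Tfap2b* at chr1:19211804-19212103, plus strand, and *Grhl3* at chr4:135573583-135573882, minus strand.
Tfap2a: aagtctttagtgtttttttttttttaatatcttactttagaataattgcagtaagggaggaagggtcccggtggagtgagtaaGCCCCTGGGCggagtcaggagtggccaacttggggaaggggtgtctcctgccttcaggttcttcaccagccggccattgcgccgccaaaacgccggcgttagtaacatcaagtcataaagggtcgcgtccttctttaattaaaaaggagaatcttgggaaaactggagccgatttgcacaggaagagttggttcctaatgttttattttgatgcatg
Tfap2b: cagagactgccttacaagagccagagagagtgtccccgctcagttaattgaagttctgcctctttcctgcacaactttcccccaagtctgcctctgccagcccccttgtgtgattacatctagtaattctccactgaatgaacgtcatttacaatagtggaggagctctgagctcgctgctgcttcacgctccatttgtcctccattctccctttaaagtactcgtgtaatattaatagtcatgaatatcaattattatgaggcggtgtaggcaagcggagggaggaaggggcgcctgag
Grhl3: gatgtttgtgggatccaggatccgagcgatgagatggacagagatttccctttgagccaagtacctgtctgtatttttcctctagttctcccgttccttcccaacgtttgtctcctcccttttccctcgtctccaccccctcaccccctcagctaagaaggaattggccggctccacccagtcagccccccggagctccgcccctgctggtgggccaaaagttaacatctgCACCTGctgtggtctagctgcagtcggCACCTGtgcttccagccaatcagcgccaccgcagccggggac
The *Tfap2a* window held 1 match to the AP-2 motif with the 4-base spacer, at bases 84 to 93. The window of the second *Tfap2a* start, not printed, held none of the 4 motifs. The *Grhl3* window held 2 E-boxes, at bases 232 to 237 and 259 to 264. The *Tfap2b* window held none of the 4 motifs. These letters are a description of the windows and not evidence of binding.

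*Tfap2a*, the AP-2 gene required for closure of the cranial neural tube and for lens separation, was highest in ectoderm in both libraries. It had 121 UMIs in WT ectoderm, 96.4 CPM (80.0 to 115), and 61 in KO ectoderm, 68.3 CPM (52.2 to 87.7). In neural crest it stood at 43.3 CPM (30.2 to 60.2) in WT and 32.1 CPM (21.5 to 46.1) in KO, and in mesenchyme at 3.57 CPM (2.55 to 4.87) and 4.57 CPM (3.51 to 5.84). The order ectoderm, neural crest, mesenchyme, optic vesicle was the same in both libraries and the intervals of neighbours in it did not overlap. In KO the separation of ectoderm from neural crest depended on the classes, with 84.1 and 59.2 CPM in cells that passed 1 gate only (48 and 22 UMIs) and log2 ratios of neural crest over ectoderm of -0.50 (-1.27 to 0.23) there, -0.29 (-1.01 to 0.39) with clusters, -0.39 (-1.05 to 0.24) with 3 ectoderm markers and -0.51 (-1.44 to 0.38) after thinning, against -1.07. Below mesenchyme, the optic vesicle, neural ectoderm, endothelium and erythrocytes had at most 1.86 CPM, with overlapping intervals. Ectoderm exceeded mesenchyme 27.0-fold (18.7 to 39.6) in WT and 15-fold (10.3 to 21.6) in KO. Neural crest reached 0.449 (0.299 to 0.659) of the ectoderm level in WT and 0.470 (0.291 to 0.742) in KO.

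*Tfap2b*, an AP-2 gene of the neural crest and of kidney and limb development, had the opposite order at the top. It was highest in neural crest, with 246 UMIs in WT, 304 CPM (268 to 345), and 223 in KO, 247 CPM (215 to 281). Ectoderm held 157 UMIs in WT, 125 CPM (106 to 146), and 74 in KO, 82.8 CPM (65.0 to 104). Mesenchyme held 23.3 CPM (20.6 to 26.3) in WT and 19.7 CPM (17.4 to 22.2) in KO. In each library neural crest, ectoderm, mesenchyme and optic vesicle followed in this order without overlapping intervals. Neural crest exceeded ectoderm 2.43-fold (1.98 to 2.99) in WT and 2.98-fold (2.28 to 3.93) in KO, and ectoderm exceeded mesenchyme 5.36-fold (4.37 to 6.56) and 4.20-fold (3.20 to 5.45). The optic vesicle had 66 and 99 *Tfap2b* UMIs, of which 48.5% and 61.6% were in cells that also passed the ectoderm or neural crest gate.

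Nearly every neural crest cell carried *Tfap2b*, 34 of 36 in WT (94.4%, 81.3 to 99.3) and 39 of 39 in KO (100%, 91.0 to 100), and the median cell had 6.5 and 6 UMIs. *Tfap2a* was found in 18 of 36 (50%, 32.9 to 67.1) and 18 of 39 (46.2%, 30.1 to 62.8) of them. In endothelium, which should lack these factors, *Tfap2b* was found in 1.49% of WT and 2.0% of KO cells and *Tfap2a* in 2.99% and 1.0%, at a median of 26799 and 21137.5 UMIs per cell against 17725 and 16998 in neural crest. The shares in neural crest were thus well above those in a deeper class.

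In mesenchyme *Tfap2b* was uneven between cells. It was found in 143 of 511 WT cells (28%, 24.1 to 32.1) and 143 of 765 KO cells (18.7%, 16 to 21.6), with up to 11 and 10 UMIs in a cell. After every cell was thinned to 10000 UMIs the shares were 17.7% (14.4 to 21.4) of 475 and 13.2% (10.8 to 15.9) of 734 cells, with 36 and 31 shallower cells left out, and the levels were 22.7 and 19.8 CPM.

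*Tfap2c*, the AP-2 gene of trophoblast, germ line and early ectoderm, was sparse in all classes. It had 10 UMIs in WT and 12 in KO ectoderm, 7.97 CPM (3.82 to 14.7) and 13.4 CPM (6.94 to 23.5). Neural crest held 16 UMIs in 9 WT cells and 4 UMIs in 4 KO cells, 19.8 CPM (11.3 to 32.2) and 4.42 CPM (1.21 to 11.3). The intervals of ectoderm and neural crest overlapped in each library. The ratio of neural crest over ectoderm was 2.48 (1.06 to 6.12) in WT and 0.329 (0.0774 to 1.09) in KO, from these few UMIs. Mesenchyme held 18 and 43 UMIs, 1.61 CPM (0.953 to 2.54) and 3.12 CPM (2.26 to 4.20). 1 WT neural crest cell held 5 of the 16 UMIs.

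*Trp63*, the p63 gene, was found mostly in ectoderm. It had 57 UMIs in WT ectoderm, 45.4 CPM (34.4 to 58.8), in 26 of 59 cells (44.1%, 31.2 to 57.6). In KO ectoderm it had 31 UMIs, 34.7 CPM (23.6 to 49.3), in 17 of 44 cells (38.6%, 24.4 to 54.5). The optic vesicle had 6 and 4 UMIs. Neural crest had 0 UMIs in both libraries, which allows up to 4.56 and 4.08 CPM and a share of cells with a UMI of up to 9.74% and 9.03%, a limit on detection and not on expression. Mesenchyme had 0 UMIs in 511 WT cells and 5 in 765 KO cells. In WT ectoderm exceeded mesenchyme 169-fold with mesenchyme set to the floor of 3 counts, and the exact interval began at 133-fold. In KO it exceeded mesenchyme 95.8-fold (36.9 to 315). In WT, 95% of all *Trp63* UMIs were in the ectoderm class. In KO the share was 63.3%, and 14 of the 49 UMIs lay in 4 cells without a class that each had 3 ectoderm markers, just under the gate.

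*Grhl2*, the grainyhead gene that controls cadherin and claudin genes, was likewise ectodermal. It had 46 UMIs in WT ectoderm, 36.7 CPM (26.8 to 48.9), in 31 of 59 cells (52.5%, 39.1 to 65.7). KO ectoderm had 19 UMIs, 21.3 CPM (12.8 to 33.2), in 14 of 44 cells (31.8%, 18.6 to 47.6). Neural crest had 0 and 1 UMI and mesenchyme 1 and 1, and ectoderm exceeded mesenchyme 410-fold (70.1 to 16552) in WT and 293-fold (46.7 to 12194) in KO. Endothelium, erythrocytes and neural ectoderm had 0 *Grhl2* and 0 *Trp63* UMIs in both libraries, in up to 106 cells of a class.

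*Grhl3*, which acts in neural tube closure and in the periderm, was nearly undetected. WT had 13 UMIs in 13 cells and KO 16 in 16 cells, and no cell had more than 1. Ectoderm held 0 of the 13, which allows up to 2.94 CPM, and 3 of the 16, 3.36 CPM (0.693 to 9.81). The optic vesicle, the largest class, held 9 and 10 of them at 0.429 CPM (0.196 to 0.813) and 0.375 CPM (0.180 to 0.689). No order between classes can be read from these counts.

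**Figure D1:**
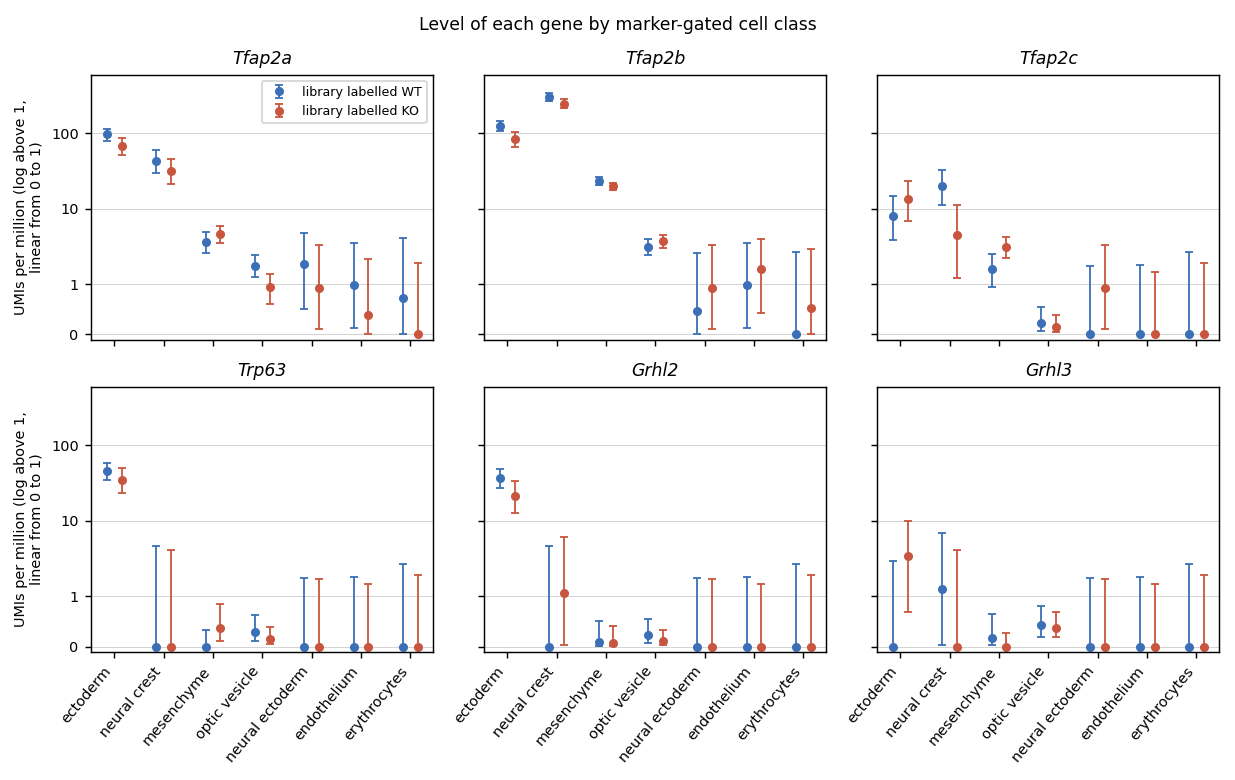
Levels of the 6 genes in CPM (y axis, logarithmic above 1 and linear from 0 to 1) in 7 marker-gated cell classes (x axis) of the libraries labelled WT (blue) and KO (red). Points are the summed class levels and bars exact 95% Poisson intervals for counting error. *Trp63* and *Grhl2* stand above 20 CPM in ectoderm alone, *Tfap2b* peaks in neural crest at 304 and 247 CPM, and *Grhl3* stays under 4 CPM in every class.

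Ratios of many genes were taken as log2 of CPM plus a pseudocount of 1, which understates the ratios of low genes, and 2-fold below is on that scale. Over all genes with at least 20 UMIs in a pair of classes, 7.98% were 2-fold or more higher in ectoderm than in mesenchyme in WT and 7.44% in KO. 5 of the 5 members measured at that level were higher in both libraries, and *Grhl3* was not measured. *Trp63* and *Grhl2* reached that level almost wholly through ectoderm, with 0 to 5 UMIs in mesenchyme, so the filter itself set their call. *Tfap2a* and *Tfap2b* reached it in mesenchyme alone, with 40 and 63 UMIs and with 261 and 272. *Tfap2c* had 18 and 43 there. The median log2 ratio of all 5, which carries the same limit, was 4.41 in WT and 3.64 in KO. Over all genes it was -0.02 and -0.04. For neural crest over mesenchyme the shares of all genes were 4.78% and 5.28%. There 3 of 3 measured members were higher in WT (*Tfap2a*, *Tfap2b* and *Tfap2c*) and 2 of 3 in KO (*Tfap2a* and *Tfap2b*).

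The ectoderm cells were next divided by the markers of the lens placode (*Pax6*, *Six3*, *Sox2*, *Maf*, *Sfrp2*, *Pitx3*, *Foxe3* and *Prox1*) and of the surface ectoderm (*Krt5*, *Krt14*, *Krt15*, *Fermt1*, *Limch1*, *Wnt6* and *Msx2*). Cells with more lens than surface markers formed the lens side, 38 in WT and 22 in KO, and cells with more surface markers the surface side, 19 and 20, with 2 ties left out in each. *Pax6* had 359 CPM on the WT lens side and 60.3 CPM on the surface side, and 303 and 61.4 CPM in KO. Of 5 periderm markers, *Krt4*, *Krt6a* and *Krt17* had 0 UMIs on both sides in both libraries. *Sfn* had 80.4 CPM in WT and 76.8 CPM in KO on the surface side, and *Gabrp* had 2 and 6 UMIs there and 0 on the lens side. The study lists some surface markers and the lens markers *Pax6*, *Six3*, *Maf*, *Sfrp2* and *Pitx3* among genes that differ between genotypes. On the lens side *Pitx3* had 49 UMIs in WT and 4 in KO, and *Limch1* 17 and 45. The median surface cell had 1 lens marker in WT and 2 in KO. The split can thus shift with genotype, so the numbers of cells on each side are not compared between genotypes. Levels within a side carry the same limit, and its part in them was not tested.

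The sides differed most in *Tfap2b*. On the WT lens side it had 29 UMIs in 38 cells, 33.3 CPM (22.3 to 47.9), and on the surface side 121 in 19 cells, 348 CPM (288 to 415), a ratio of 10.4 (6.90 to 16.2). In KO the sides had 33.5 CPM (19.8 to 52.9) and 166 CPM (125 to 216), a ratio of 4.95 (2.86 to 8.98), and 1 KO lens cell held 8 of the 18 lens UMIs. All 19 WT surface cells carried *Tfap2b*, with a median of 6 UMIs, against 17 of 38 lens cells. On the WT surface side *Tfap2b* reached a level like that of neural crest, 304 CPM, with overlapping intervals. In KO neural crest was higher, at 247 CPM (215 to 281) against 166 CPM (125 to 216). In WT, cells that passed 1 gate only had 415 CPM in neural crest and 348 CPM on the surface side. With clusters the WT levels were 433 and 343 CPM.

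*Trp63* was also higher on the surface side. It had 26.4 CPM (16.8 to 39.7) on the WT lens side and 94.8 CPM (65.2 to 133) on the surface side, a ratio of 3.58 (2.04 to 6.39). In KO the levels were 14.9 CPM (6.42 to 29.3) and 64.5 CPM (39.9 to 98.6), a ratio of 4.34 (1.84 to 11.3). On the lens side *Trp63* was not absent, since 12 of 38 WT cells and 5 of 22 KO cells carried it.

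*Grhl2* differed between the sides in WT and not detectably in KO. It had 23.0 CPM (14.0 to 35.5) on the WT lens side and 68.9 CPM (44.2 to 103) on the surface side, a ratio of 3.00 (1.59 to 5.72). In KO it had 22.3 CPM (11.5 to 39.0) and 21.5 CPM (8.64 to 44.3), a ratio of 0.963 (0.321 to 2.65), and whether the ratios differ was not tested.

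*Tfap2a* did not differ detectably between the sides. It had 102 CPM (82.2 to 126) on the lens side and 89.0 CPM (60.5 to 126) on the surface side in WT, a ratio of 0.870 (0.559 to 1.32). In KO the levels were 57.6 and 70.6 CPM, a ratio of 1.23 (0.682 to 2.17). *Tfap2a* was found in 35 of 38 WT lens cells and 12 of 19 surface cells. Among all genes 6.07% in WT and 4.66% in KO were 2-fold or more higher on the surface side. So were 3 of 4 measured members in WT (*Tfap2b*, *Trp63* and *Grhl2*) and 2 of 3 in KO (*Tfap2b* and *Trp63*). In KO *Trp63* passed the limit on UMIs through the surface side, with 21 UMIs against 8, so the filter itself set its call. *Tfap2b* had 54 against 18 there, with the lens side also under the limit alone. *Grhl2* had 7 surface and 12 lens UMIs in KO, a ratio of 0.963. It fell under the limit and was left out of the KO count.

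**Figure D2:**
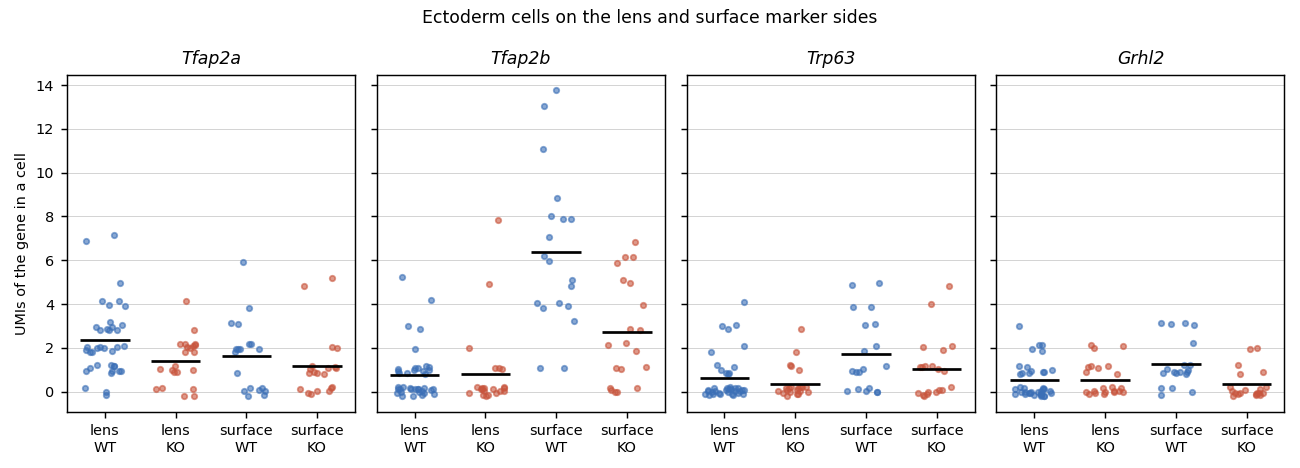
UMIs of 4 genes (y axis) in each ectoderm cell of the lens and surface marker sides (x axis), for the libraries labelled WT (blue) and KO (red). Each point is 1 cell, moved slightly at random so that equal counts can be seen, and black lines are means. *Tfap2b* reaches 14 UMIs in a WT surface cell and no WT surface cell lacks it, while *Tfap2a* reaches 7 UMIs on the WT lens side and 6 on the WT surface side.

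Co-detection followed these levels. In WT ectoderm, *Trp63* and *Tfap2b* were found together in 21 of 59 cells (35.6%), above the 28.4% that the product of their shares gives, and *Trp63* and *Grhl2* in 19 (32.2%, product 23.2%). *Trp63* and *Pax6* were together in 33.9% of cells, below the product of 36.6%. After thinning, the same pairs gave 30.4% (product 20.4%), 14.3% (10.2%) and 19.6% (26.8%). In KO ectoderm, *Trp63* with *Tfap2b* stood at 29.5% (product 20.2%) and *Trp63* with *Grhl2* at 13.6% (12.3%). At least 1 AP-2 gene was seen in 56 of 59 WT and 36 of 44 KO ectoderm cells and in 35 of 36 and 39 of 39 neural crest cells. All ectoderm cells with a *Tfap2c* UMI, 8 in each library, also had *Tfap2a*, and after thinning 3 of 4 in each. *Tfap2a* was found in 48 of 59 WT and 32 of 44 KO ectoderm cells. The pair stood at 13.6% (product 11.0%) in WT and 18.2% (13.2%) in KO. After thinning it stood at 5.36% (5.23%) and 7.14% (4.31%). No association is read from so few cells.

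Between the libraries, the ectoderm levels of 4 of the 5 measured members were lower in the one labelled KO, but none by 2-fold. Over all genes 2.37% were 2-fold or more lower there and 1.48% higher. The share of all genes lower by any amount was not counted, and their median log2 ratio was -0.0067. The class held 38 lens-side and 19 surface-side cells in WT and 22 and 20 in KO. The part of this make-up in the ratios was not tested. The KO to WT ratio was 0.708 (0.512 to 0.971) for *Tfap2a*, 0.662 (0.495 to 0.878) for *Tfap2b*, 0.764 (0.477 to 1.20) for *Trp63* and 0.580 (0.321 to 1.01) for *Grhl2*. *Tfap2c* had a ratio of 1.69 (0.668 to 4.36). The intervals of *Tfap2a* and *Tfap2b* lay under 1 for counting error alone, and the spread between cells would widen them. In WT ectoderm 21 of 59 cells had 0 *Tfap2b* UMIs and 19 had 4 or more. With cells that passed 1 gate only, the log2 ratio of *Tfap2a* went from -0.49 to -0.31 (-0.82 to 0.18), and with 1 more marker to -0.28 (-0.91 to 0.35).

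The split into sides rests partly on markers that differ between genotypes, and this limits the ratios that follow. Within the sides, *Tfap2b* had a ratio of 0.477 (0.340 to 0.663) on the surface side and 1.0 (0.525 to 1.87) on the lens side. The lens value rests on the 1 KO cell with 8 of 18 UMIs, and 17 of 38 WT and 6 of 22 KO lens cells carried the gene. With cells that passed 1 gate only, the lens side had 37.7 CPM in WT and 12.1 CPM in KO (24 and 3 UMIs), with 1 more marker 30.3 and 10.4 CPM, and with subclusters 35.1 and 55.4 CPM, so no direction can be read there. Every WT surface cell carried it, with a median of 6 UMIs, whereas 15 of 20 KO surface cells did, with a median of 2. *Grhl2* had a surface ratio of 0.312 (0.113 to 0.746), from 24 UMIs in 15 of 19 WT cells to 7 UMIs in 5 of 20 KO cells, and a lens ratio of 0.970 (0.432 to 2.08). *Tfap2a* had a ratio of 0.563 (0.362 to 0.856) on the lens side and 0.793 (0.442 to 1.40) on the surface side. The surface cells had a median of 16987 UMIs in WT and 15605.5 in KO. 2 of 4 measured members, *Tfap2b* and *Grhl2*, were 2-fold or more lower on the KO surface side, against 3.72% of all genes. *Grhl2* passed the limit of 20 UMIs through WT, with 24 UMIs against 7, so the filter itself set its call. With 1 more marker required in the gate, which left 9 WT and 12 KO surface cells, the log2 ratios were -0.85 for *Tfap2b* and -0.91 for *Grhl2*, under 2-fold. *Tfap2b* was also under 2-fold with clusters (-0.64), subclusters (-0.65), an ectoderm gate of 3 markers (-0.90) and *Pax6* alone (-0.97). The surface subcluster held 20 WT and 9 KO cells, against 19 and 20 on the gated surface side. *Trp63* had 0.680 (0.374 to 1.21) on the surface side, and its log2 ratio changed from -0.55 to 0.67 when clusters replaced the gates, where KO surface cells held 31 UMIs in place of 21.

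In neural crest, *Tfap2a* had a KO to WT ratio of 0.741 (0.437 to 1.25) and *Tfap2b* of 0.810 (0.673 to 0.975). With the cells that passed a second gate left out, the log2 ratio of *Tfap2b* went from -0.30 to -0.02 (-0.33 to 0.28). *Tfap2c* had 0.223 (0.0544 to 0.693), and was the 1 of 3 measured members 2-fold or more lower, against 1.18% of all genes. It reached the limit of 20 UMIs through WT, with 16 UMIs against 4 in KO, so the filter itself set its call. In mesenchyme the ratios were 1.28 (0.846 to 1.95) for *Tfap2a*, 0.845 (0.711 to 1.01) for *Tfap2b* and 1.94 (1.09 to 3.57) for *Tfap2c*. No member was 2-fold or more lower there, against 0.222% of all genes. *Tfap2b* was found in a smaller share of KO than of WT mesenchyme cells at 10000 UMIs, 13.2% against 17.7%, with overlapping intervals.

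**Figure D3:**
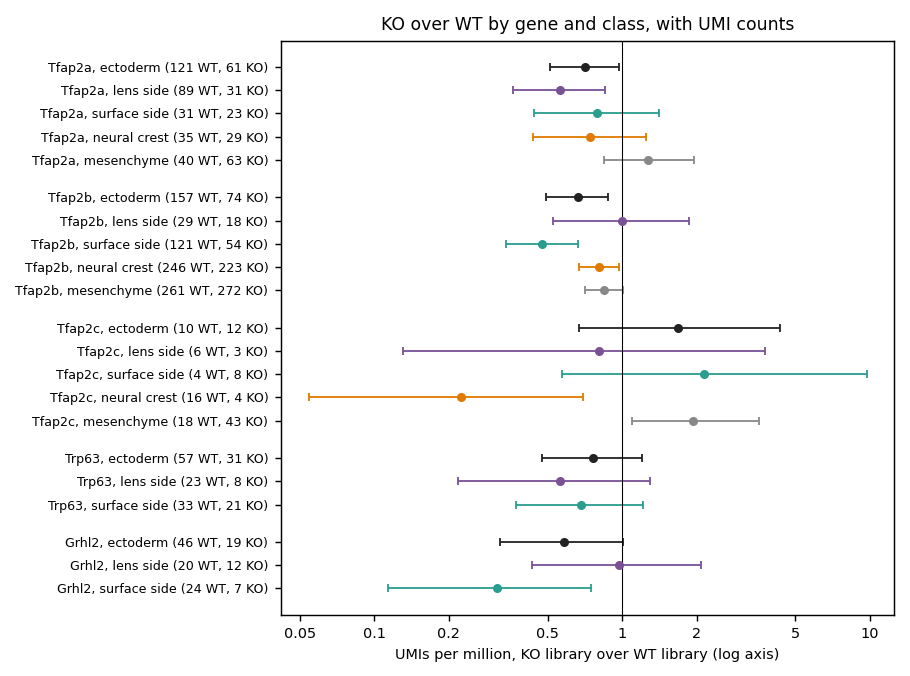
Ratio of the level in the library labelled KO to that in the library labelled WT (x axis, logarithmic) for 5 genes and up to 5 cell groups, with the UMIs of both libraries in the labels. Bars are exact 95% intervals for counting error in 1 embryo each, and the line marks a ratio of 1. *Tfap2b* and *Grhl2* lie at 0.477 and 0.312 on the surface side, and the lens value of *Tfap2b*, 1.0, rests on 1 KO cell with 8 of 18 UMIs.

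The other genes of these pathways came from lists. Of the related family members, *Tfap2d*, *Tfap2e*, *Grhl1* and *Trp73* had 10 or fewer UMIs in both libraries together. *Trp53*, the tumour suppressor related to p63, was at 148 CPM in both ectoderm and mesenchyme in WT. The AP-2 cofactors of the Cited family and the coactivators and Kctd inhibitors of AP-2 formed a list of 8 genes. 2 of the 8 in WT (*Cited2* and *Cited4*) and 1 in KO (*Cited4*) were 2-fold or more higher in ectoderm than in mesenchyme, and *Cited1* was lower in both, where 7.46% and 9.03% of all genes were lower. Over all genes 7.98% and 7.44% were higher. In WT *Cited4* passed the limit of 20 UMIs through ectoderm, with 46 UMIs against 6. Within ectoderm *Cited4* stood at 36.7 CPM in WT and 5.60 CPM in KO, and *Cited2* at 110 and 53.7 CPM, the 2 of 7 measured genes that were 2-fold or more lower. *Cited4* passed the limit there through WT, with 46 UMIs against 5 in KO, so the filter itself set that call. Over all genes 2.37% were 2-fold or more lower in KO ectoderm. The 3 lowest ectoderm to mesenchyme ratios in WT were 0.238 for *Cited1*, 0.497 for *Kctd15* and 0.814 for *Crebbp*, and the third of the 3 highest was 1.63 for *Wwox*.

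Of 16 genes known downstream of p63 in ectoderm, 9 were measured, and 8 of them were higher in ectoderm in both libraries. Over all genes 7.98% in WT and 7.44% in KO were higher. *Perp*, *Dlx3* and *Sfn* passed the limit of 20 UMIs through ectoderm, with 6, 4 and 5 mesenchyme UMIs in WT and 13, 3 and 10 in KO. In WT *Cdkn1a* passed it with 15 ectoderm and 8 mesenchyme UMIs. The filter itself thus set these calls. The median log2 ratio of the list was 2.33 in WT and 2.12 in KO. The 3 highest ratios in WT were 131 for *Perp*, a desmosome gene, 118 for *Dlx3*, a homeobox gene of ectoderm, and 89.2 for *Sfn*, a 14-3-3 protein of keratinocytes. The lowest were 2.68 for *Bmp7*, a growth factor, 2.17 for *Fgfr2*, an epithelial FGF receptor, and 1.29 for *Dst*, a hemidesmosome linker. The keratin genes of mature basal epidermis were near their floor, with 0 UMIs for *Krt5*, 16 for *Krt14* and 9 for *Krt15* over both libraries. Of the 8 genes measured on both sides in WT, 4 were higher on the surface side (*Perp*, *Sfn*, *Itga6* and *Fgfr2*) and the median log2 ratio was 1.04, against 0.01 over all genes. In KO 3 of 8 were higher (*Perp*, *Sfn* and *Bmp7*), with a median of 0.65. There 1 of 8 was 2-fold or more lower, *Dst*, with 19 lens and 3 surface UMIs. The share of all genes lower on the surface side was not counted. The filter itself set some of these calls between the sides. *Perp* passed the limit through the surface side, with 78 UMIs against 7 in WT and 41 against 4 in KO. In KO *Sfn* did so with 25 against 6. *Dst* passed it mostly through the lens side, whose 19 UMIs were just under the limit alone. Over all genes 6.07% in WT and 4.66% in KO were 2-fold or more higher on the surface side.

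Of 19 genes known downstream of Grhl2 and Grhl3, 15 were measured in WT and 14 were higher in ectoderm, and 12 of 14 in KO. 2 of these, *Cdh1* and *Epcam*, are gate markers, so that without them the counts were 12 of 13 and 10 of 12. Over all genes 7.98% in WT and 7.44% in KO were higher. Most measured genes of the list passed the limit of 20 UMIs through ectoderm, so the filter itself set their call. Only *Epcam*, *Spint2*, *Elf3* and *Vangl2* had 20 or more UMIs in mesenchyme. Of these, *Epcam* and *Spint2* were higher in both libraries, *Elf3* in WT alone and *Vangl2* in neither. The median log2 ratios of the list were 5.04 and 5.44, and 5.2 in WT with genes at 0 in mesenchyme set to their bound. The 3 highest in WT were *Cldn6* and *Cldn7*, tight junction genes, and *Cdh1*, the gene of E-cadherin. *Cldn6* stood at 201 CPM in ectoderm and 0.0893 CPM, 1 UMI, in mesenchyme, and *Cdh1* at 98.0 and 0.0893 CPM. *Cldn7* stood at 106 CPM against 0 UMIs, at least 317-fold higher by its exact interval. *Cldn3*, *Elf3* and *Vangl2* had the lowest log2 ratios, at 3.67, 1.55 and -0.34. 1 of 13 genes was 2-fold or more higher on the surface side in WT (*Cldn4*) and 1 of 13 in KO (*St14*), with median log2 ratios of 0.21 and 0.45. *St14* had 14 surface and 10 lens UMIs in KO, so neither side reached the limit of 20 UMIs alone. Over all genes 6.07% and 4.66% were higher on that side. In KO against WT ectoderm *Cldn3* was the 1 gene of 14 that was 2-fold or more higher, at 53.7 against 15.1 CPM, and none was 2-fold or more lower. Of the 9 measured genes of the p63 list 0 were 2-fold or more lower there. Over all genes 2.37% were lower and 1.48% higher. At that share, so few genes cannot show whether the lists follow *Trp63* and *Grhl2*. These factors stood at ratios of 0.764 and 0.580, not 2-fold lower either.

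**Figure D4:**
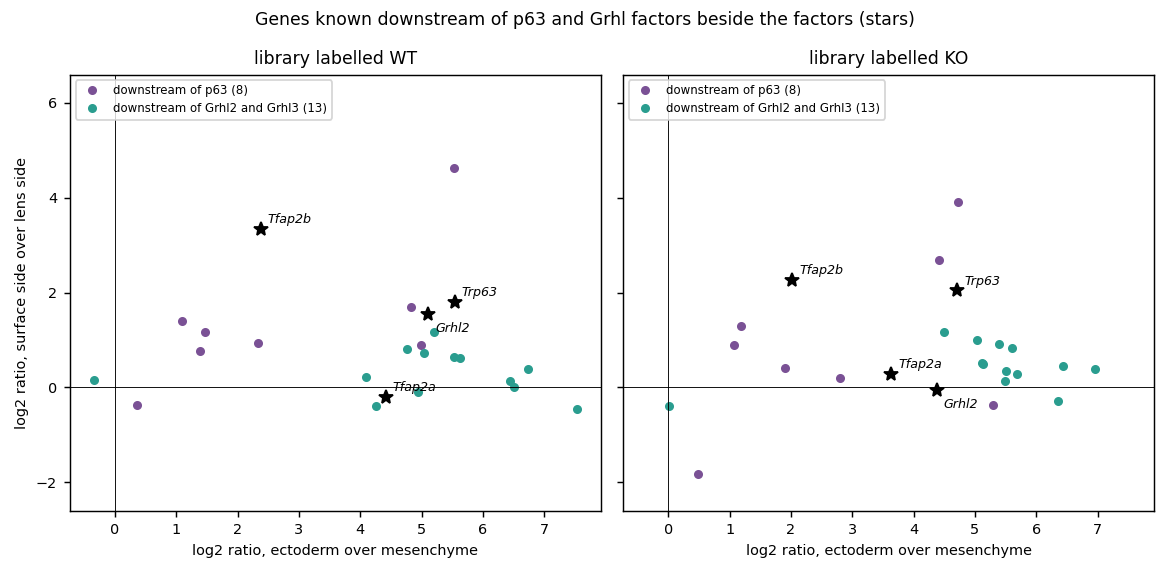
Log2 ratio of ectoderm over mesenchyme (x axis) against log2 ratio of the surface over the lens side (y axis) for measured genes downstream of p63 (purple) and of Grhl2 and Grhl3 (green), with 4 of the factors as stars, in the libraries labelled WT (left) and KO (right). Most genes of the Grhl list lie far to the right and under 2-fold between the sides, with *Vangl2* at -0.34 on the x axis in WT. Genes of the p63 list range from -1.83 (*Dst*, KO) to 4.64 (*Perp*, WT) on the y axis.

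Of 14 neural crest and frontonasal genes that AP-2 factors act with, 12 were measured in neural crest and mesenchyme. *Pax3*, *Ednrb* and *Mitf* were 2-fold or more higher in neural crest than in mesenchyme in both libraries, and *Ednrb* is a gate marker. *Ednrb*, *Kit* and *Snai2* had the highest ectoderm to mesenchyme log2 ratios in WT, at 2.44, 1.07 and 1.05. *Pax3* stood at 86.6 and 87.4 CPM in neural crest, the class in which *Tfap2b* was highest.

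Across the 7 classes of both libraries, 14 sums in all, log2 levels of each member were correlated with those of 11034 genes with 200 or more UMIs. The sums share libraries, classes and depth, and the values describe likeness only. *Tfap2a*, *Tfap2b* and *Tfap2c* correlated with each other at Pearson's r of 0.923 to 0.934, and *Trp63* with *Grhl2* at 0.984. *Dlx2* (r = 0.949), *Erbb3* (0.928), *Tfap2a* (0.923), *Dnajc1* (0.919) and *Alcam* (0.913) were most like *Tfap2b*. *Dnajc1* (0.948), *Uhmk1* (0.946), *Dlx2* (0.925), *Tfap2b* (0.923) and *Cryab* (0.904) were most like *Tfap2a*. *Tfap2c* was most like *Tfap2a* (0.934), *Tfap2b* (0.927), *Uhmk1* (0.926), *Dlx2* (0.905) and *Dnajc1* (0.900). *Trp63* was most like *Krt7* (0.991), *Wnt6* (0.991), *Fermt1* (0.976), *Cdh1* (0.975) and *Mapk13* (0.969). *Grhl2* was most like *Wnt6* (0.991), *Krt7* (0.989), *Fermt1* (0.988), *Cldn6* (0.976) and *Mapk13* (0.972). *Cdh1* and *Erbb3* are markers of the gates that formed these classes, and *Wnt6* and *Fermt1* are surface markers. These lists depend on the minimum level. With at least 50 UMIs in place of 200, 0 of the 5 genes stayed among the 5 most like *Trp63*. The number was 3 for *Tfap2b*, 3 for *Grhl2*, 2 for *Tfap2a* and 4 for *Tfap2c*. With at least 500 UMIs the numbers were 0, 1, 1, 3 and 3 in the same order. That limit only removed genes, since every listed gene with 500 or more UMIs stayed. The 5 genes listed for *Trp63* had 220 to 375 UMIs, so none of them could stay. *Grhl3*, with 29 UMIs in all, had no r above 0.769 and its values are not read.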

How the data were processed

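Single-cell RNA of 1 wild-type and 1 *Mab21l1*-null embryo was analysed. The authors aligned reads to mm10 (GRCm38) with Cell Ranger, combined both libraries with its aggr step, which can subsample reads, and deposited whole UMI counts per gene and barcode. The libraries held 43636657 and 53148253 UMIs in 1745 and 2458 barcodes. Barcodes were kept if they had 1500 to 8000 detected genes and if no more than 5% of their UMIs were mitochondrial. The methods write this last limit in a form that can be read as a fraction or a percent, and 5% was taken. Cells were assigned by marker gates, whose limits were set after the data were seen. Counts were summed per class and library and divided by the summed UMIs (CPM). Intervals were exact Poisson, Clopper-Pearson and conditional binomial at 95%. Where a fold value or bound needed it, a count of 0 was given a floor of 3 counts. With 1 library per genotype no test was run, and cells are not replicates. Scrublet in scanpy 1.11.5 marked doublets at a score threshold of 0.25, and these were kept and left out in an alternative. Cells were also thinned to 10000 UMIs. Clusters came from leidenalg 0.10.2, and TMM factors, an alternative scaling, from edgeR 4.0.16. Scripts used Python 3.11.15, numpy 2.4.6, pandas 2.3.3, scipy 1.17.1 and matplotlib 3.10.9, and were checked on simulated data. Named genes were the 6 members, the gate markers, *Mab21l1*, *Pax6*, the 3 highest and 3 lowest ectoderm to mesenchyme ratios of each related list among genes with at least 100 UMIs, and the 5 genes most like each member. Some gate markers and list genes are not reported here. Other genes are named where a count was small or where a limit on UMIs decided a call, after their values were seen. The members and lists were chosen with earlier results of these data known.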

Additional observations from a re-analysis of the deposited data

Results flagged for a closer look

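*Tfap2c* was singled out because its ratio of the library labelled KO to the library labelled WT lay on opposite sides of 1 in different classes. In mesenchyme the ratio was 1.94 (1.09 to 3.57), from 18 UMIs in WT and 43 in KO. In neural crest it was 0.223 (0.0544 to 0.693), from 16 UMIs in 9 WT cells, 5 of them in 1 cell, and 4 UMIs in 4 KO cells. The difference between these ratios was not tested, since each genotype had 1 embryo.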

How the results depend on the processing

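Of 396 recomputed log2 ratios of 36 results, 353 moved by less than their counting interval, 43 moved by more and 0 reversed a called direction. With an ectoderm gate of 3 markers, chosen after seeing the data, ectoderm over mesenchyme was 3.89 in WT and 2.96 in KO for *Tfap2a* and 1.90 and 1.59 for *Tfap2b*. Neural crest over ectoderm was then 1.75 and 1.99 for *Tfap2b* and -0.39 for *Tfap2a* in KO, and surface over lens side 0.39 and 1.12 for *Tfap2a*, 4.01 and 3.18 for *Tfap2b* and 3.43 for *Trp63* in KO. A pseudocount of 10 gave ectoderm over mesenchyme of 2.97, 2.02, 0.63, 2.47 and 2.21 in WT for *Tfap2a*, *Tfap2b*, *Tfap2c*, *Trp63* and *Grhl2*, and 2.43, 0.84, 2.11 and 1.63 in KO for *Tfap2a*, *Tfap2c*, *Trp63* and *Grhl2*. A pseudocount of 0.1 gave 8.83 and 7.60 in WT and 6.23 and 6.95 in KO for *Trp63* and *Grhl2*. Clusters in place of gates gave neural crest over ectoderm of 1.66 and 2.16 for *Tfap2b* and -0.29 for *Tfap2a* in KO, ectoderm over mesenchyme of 5.43 for *Trp63* in KO, and KO over WT of -0.50 for *Tfap2b* in mesenchyme and 0.67 for *Trp63* on the surface side. Cells passing 1 gate only gave, in KO, 5.37 for *Trp63* ectoderm over mesenchyme, 2.13 for *Tfap2b* neural crest over ectoderm and 3.65 for *Tfap2b* surface over lens, and KO over WT for *Tfap2b* of -0.022 in neural crest and -0.47 in mesenchyme. With 1 more marker, *Tfap2b* gave 2.12 for neural crest over ectoderm and 3.76 for surface over lens in KO, and -0.51 for KO over WT in mesenchyme. Thinning gave 2.75 for *Tfap2b* surface over lens in WT, and 5.31 for *Trp63* ectoderm over mesenchyme and 2.0 for *Tfap2b* neural crest over ectoderm in KO. *Pax6* alone as the divider gave 2.56 for *Tfap2b* surface over lens in WT. The cause of these shifts was not tested, other than that a pseudocount moves the ratios of low genes by construction.

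The ectoderm class held 59 and 44 cells, and the few UMIs of *Grhl3* set no order. Genotype, embryo, library and depth cannot be told apart. No paired analysis was possible because each genotype had 1 library, and class comparisons came from no test.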
